A study of Camelus dromedarius with 10 samples.

Results

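The genes described here encode the enzymes that turn a peptide precursor into a finished, amidated hormone: the proprotein convertases PCSK1, PCSK2, FURIN, PCSK5, PCSK6 and PCSK7, the carboxypeptidase CPE and the amidating enzyme PAM. They were chosen by name with earlier results of these data known, so the share called among them is not independent of that choice. The study itself reports PCSK1 and PCSK2 as changed in these data. Each gene was matched to 1 row of the count table through the identity columns of the study's gene tables, which gave 8 of 22444 gene IDs. Their IDs are ENSCDRG00005011495 (PCSK1), ENSCDRG00005004757 (PCSK2), ENSCDRG00005012204 (FURIN), ENSCDRG00005000104 (PCSK5), ENSCDRG00005017712 (PCSK6), ENSCDRG00005018259 (PCSK7), ENSCDRG00005011907 (CPE) and ENSCDRG00005007464 (PAM). No other ID had counts within 1% of those of any of the 8 in every library. The row of PAM was found only in a shortened table that is sorted by the p-value of this same comparison, whereas the other 7 were found in a further table. PAM could therefore be named because it stood near the top of that table, and its test is not independent of how it was found.

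The tissue was the rostral supraoptic nucleus (SON) of male dromedary camels aged 4 to 5 years, punched from frozen sections of the hypothalamus. The 5 control camels drank freely, the 5 WD camels had no water for 20 days (water deprivation, WD), and both groups were fed freely. Each library was made from ribosomal RNA-depleted RNA of 1 camel, and is named by its group and its number in the labels (CON2, CON3, CON4, CON5 and CON13; WD6, WD7, WD8, WD9 and WD15). A punch holds glia and vessels as well as neurones, so that fewer cells of a type and less RNA per cell cannot be told apart in these data.

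Magnocellular neurones (MCNs) of the SON make vasopressin and oxytocin as parts of longer precursors that are packed into dense-core granules. Within the granule a convertase cuts after a pair of basic residues, CPE trims the basic residues from the new end, and PAM turns the glycine that is left into a C-terminal amide, on which the activity of both hormones depends. PCSK1 and PCSK2 are the convertases of regulated secretion, whereas FURIN and PCSK7 work mainly along the general secretory route and PCSK5 and PCSK6 mainly on precursors of growth factors and surface proteins.

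The substrate of these steps can be read in the camel sequences that the study designed its in situ hybridisation probes against. The stretches below are 36 bases long, 5′ to 3′ in the coding sense, and hold the 9 codons of the hormone in lower case followed, in capitals, by the 3 codons of the processing site for glycine, lysine and arginine. They lie at bases 62 to 97 of the AVP probe sequence and 91 to 126 of the OXT probe sequence. No genome of the build used for the counts was at hand, so no chromosomal position is given.
AVP: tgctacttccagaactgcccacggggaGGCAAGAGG
OXT: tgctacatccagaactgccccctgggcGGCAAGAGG
The convertase cuts after the last capital codon, CPE removes the residues of the last and the middle one, and PAM acts on the residue of the first. The hormone parts differ between the stretches at 4 bases, and the 9 bases of the site at 0. The AVP and OXT genes have no ID paired with their names in the tables used here, and their counts are not analysed here.

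Between 1665098 and 8126641 read pairs were counted on genes per library, but 5 gene IDs took 27.7% to 76.1% of them. One read pair was worth 1.20 CPM (counts scaled to a common library size) in CON13, 0.475 CPM in WD6 and 0.0864 to 0.237 CPM in the other 8 libraries, so that members with few counts were measured least precisely in CON13 and WD6. Levels are CPM after TMM normalization, which sets libraries to a common scale from the bulk of their genes. The neuroendocrine markers SIM1, OTP and ARNT2 had log2 fold changes (LFC) of -0.04, -0.58 and -0.03 in WD. By edgeR and by DESeq2 0 of the 3 were called, and OTP had an unadjusted p of 0.0255 in the edgeR fit, whereas their summed level, most of it from ARNT2, was 378.9 to 529.7 CPM in control and 391 to 541 CPM in WD. Of 6 microglial markers 0 were called by edgeR or by DESeq2, but 5 had an unadjusted p under 0.05 in the edgeR fit and the LFC of all 6 was above 0 (median 0.80). Their summed level was 204.9 to 329.4 CPM in control and 357, 258, 405, 254 and 764 CPM in WD6, WD7, WD8, WD9 and WD15, so that WD15 stood apart and WD7 and WD9 lay within the control range. Without WD15 PCSK1, PCSK2 and PAM kept their calls, PCSK2 narrowly (LFC -1.38, adjusted p = 0.0460 in the edgeR quasi-likelihood fit). Of these markers CX3CR1 and P2RY12, and the only astrocyte markers paired with an ID, ALDH1L1 and ALDOC, were named only in the table sorted by p-value, so that their direction is not independent of how they were found. The astrocyte markers had a median LFC of 0.57, 0 of 2 were called by edgeR, both had an unadjusted p under 0.05, and DESeq2 called 1 (ALDOC). Their summed level was 246.3 to 343.8 CPM in control and, without overlap, 360 to 539.2 CPM in WD. Of 6 endothelial markers 0 were called by edgeR or by DESeq2, the LFC of 5 was above 0 (median 0.18), and 2 had an unadjusted p under 0.05 in the edgeR fit, KDR (LFC 0.64) and FLT1 (LFC 0.62). The summed endothelial level was 242.9 to 431.3 CPM in control and 253.6 to 522.4 CPM in WD. Among the 7 markers of oligodendrocytes, the 2 of GABA neurones and the 1 tested of the suprachiasmatic nucleus, 0 were called by edgeR or by DESeq2 and 0 had an unadjusted p under 0.05 in the edgeR fit. The 4 anterior pituitary markers summed to at most 5.98 CPM in any library. The part of these glial and endothelial markers in the results below was not tested.

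Of the 8 genes, PCSK1 and PAM rose and PCSK2 fell in WD, each without overlap between the groups, and the other 5 did not pass the test. A gene was called where its p in the edgeR quasi-likelihood fit, adjusted after Benjamini and Hochberg over all 14432 genes tested, was at most 0.05, which held for 0.499% of them (0.270% higher and 0.229% lower in WD). The groups of libraries did not overlap for 2.62% of all genes (1.34% with WD higher and 1.27% with WD lower). DESeq2's Wald test, which called 1.27% of the genes it tested, called the same 3 of the 8. The median LFC of the 8 genes was 0.27, beside 0.02 over all genes tested. Without PAM it was 0.20 over 7 genes, of which 1 was called higher and 1 lower. They passed the filter on low counts in full, with 454 (PCSK5) to 38949 (PCSK1) read pairs over the 10 libraries.

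**Figure D1:**
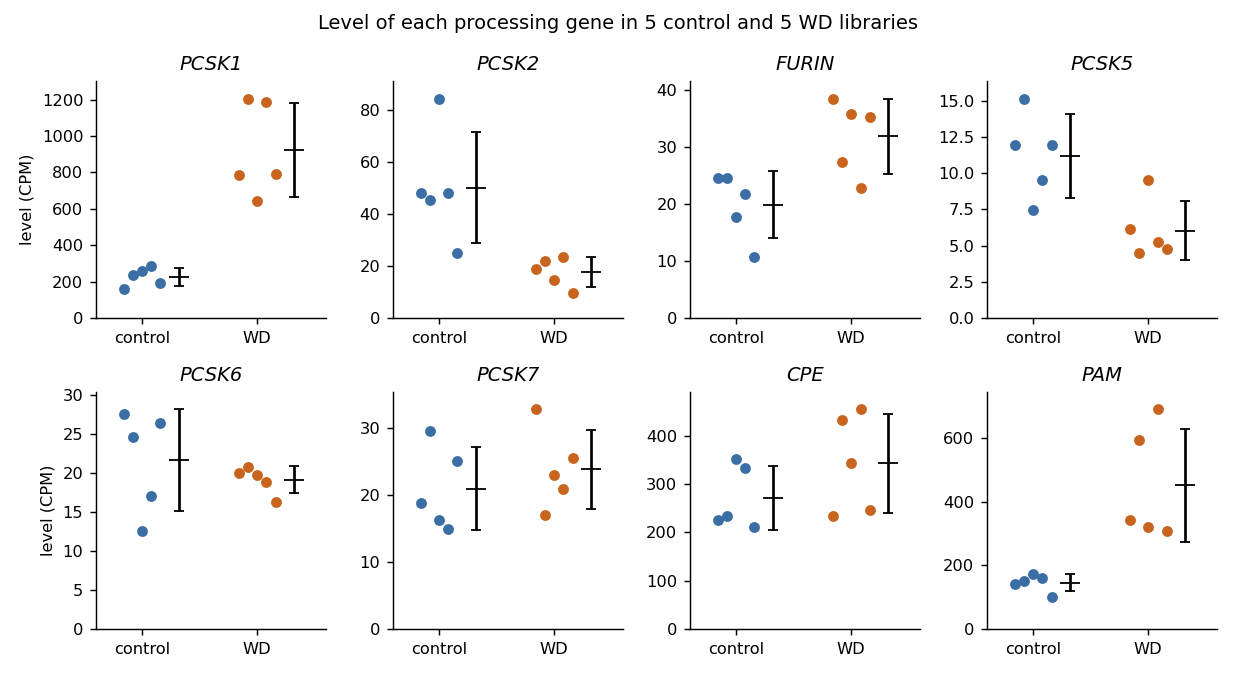
Level of each of the 8 genes in every library, in CPM after TMM normalization (vertical axes start at 0 and differ between panels). Points are libraries, in the order CON2, CON3, CON4, CON5, CON13 and WD6, WD7, WD8, WD9, WD15, and the bars are the mean and SD of 5 libraries. The WD points lie wholly above the control points for PCSK1 and PAM and wholly below them for PCSK2.

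PCSK1, the convertase that makes the early cuts in neuroendocrine precursors, rose. Its level was 161, 237, 259, 285 and 194 CPM in CON2, CON3, CON4, CON5 and CON13. In WD6, WD7, WD8, WD9 and WD15 it was 785, 1206, 642, 1187 and 794 CPM. The lowest WD library stood at more than the highest control library, and WD7 and WD9 stood apart above the other WD libraries. The mean went from 227 ± 50.0 to 923 ± 257 CPM (SD, n = 5 each), an LFC of 2.02 ± 0.22 (SE), or 4.05-fold, with an adjusted p of 0.000249 in the edgeR quasi-likelihood fit. By p-value it was the third of all genes tested. Its call held under all 20 alternative settings, with an LFC between 1.89 and 2.21.

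PCSK2, the convertase that acts later in the maturing granule, fell. The control libraries CON2, CON3, CON4, CON5 and CON13 had 48.0, 45.7, 84.6, 48.2 and 25.1 CPM. The WD libraries WD6, WD7, WD8, WD9 and WD15 had 19.0, 22.2, 14.6, 23.4 and 9.79 CPM. CON4 stood well above the other controls, and the highest WD library was just under the lowest control library, CON13, which had only 21 read pairs on the gene. The mean went from 50.3 ± 21.4 to 17.8 ± 5.63 CPM (SD, n = 5 each), an LFC of -1.53 ± 0.28 (SE), a 2.89-fold lower level, with an adjusted p of 0.0144 in the edgeR quasi-likelihood fit. The call was lost when libraries were scaled by their totals only (LFC -1.41, adjusted p = 0.724) and, narrowly, without WD8 (LFC -1.49, adjusted p = 0.0538).

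PAM, which needs copper and ascorbate to make the C-terminal amide, rose. Its level was 141, 151, 172, 160 and 102 CPM in CON2, CON3, CON4, CON5 and CON13. It was 343, 594, 319, 690 and 308 CPM in WD6, WD7, WD8, WD9 and WD15. As for PCSK1, WD7 and WD9 were the highest libraries, and every WD library lay above every control. The mean went from 145 ± 26.8 to 451 ± 178 CPM (SD, n = 5 each), an LFC of 1.63 ± 0.24 (SE), or 3.09-fold, with an adjusted p of 0.00313 in the edgeR quasi-likelihood fit. The call was lost with library totals only (LFC 1.83, adjusted p = 0.178), a scaling under which 10 genes in all were called.

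CPE, the carboxypeptidase that follows the convertases, did not pass the test. Its level was 225, 233, 351, 334 and 210 CPM in CON2, CON3, CON4, CON5 and CON13. It was 234, 432, 344, 455 and 247 CPM in WD6, WD7, WD8, WD9 and WD15. The groups overlapped widely, with WD6 and WD15 among the controls and WD7 and WD9 above them. The LFC was 0.34 ± 0.22 (SE, adjusted p = 0.694 in the edgeR quasi-likelihood fit), and its 95% interval, -0.13 to 0.80, lay below the interval of PCSK1 (1.55 to 2.49) and of PAM (1.12 to 2.14).

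In each group the 2 libraries with the most read pairs outside the 5 dominant IDs (CON4 and CON5 with 4496624 and 3499424, WD9 and WD7 with 5872137 and 3996379) also had the highest levels of PCSK1, PCSK2, PAM and CPE. Below these, CPE in WD fell with the depth (344, 247 and 234 CPM in WD8, WD15 and WD6). So did PCSK2 in control (48.0, 45.7 and 25.1 CPM in CON2, CON3 and CON13). PCSK1 and PAM in both groups, CPE in control and PCSK2 in WD did not follow it throughout. WD8, the next deepest WD library with 3140019 of these read pairs, had the lowest PCSK1 level of its group (642 CPM), under that of WD6 (785 CPM), which had the fewest (1106575). CON2, with 2244339, had less PCSK1 than CON13 with 397495 (161 against 194 CPM). With a covariate that splits the libraries into the 5 with the fewest and the 5 with the most of these read pairs, the LFC was 1.95 for PCSK1, -1.67 for PCSK2, 1.49 for PAM and 0.19 for CPE, and the edgeR quasi-likelihood fit called the same 3 of these 4 genes (adjusted p of 9.46e-06, 0.000421 and 0.000317, with 0.655 for CPE). Under that fit 1.55% of all genes were called.

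FURIN, the convertase of the trans-Golgi network, had 24.5, 24.6, 17.8, 21.8 and 10.8 CPM in CON2, CON3, CON4, CON5 and CON13. In WD6, WD7, WD8, WD9 and WD15 it had 38.4, 27.3, 35.8, 22.8 and 35.2 CPM. Only WD9 lay within the control range, and the lowest library, CON13, rested on 9 read pairs. The LFC of 0.61 ± 0.22 (SE) had an unadjusted p of 0.0122 and an adjusted p of 0.349 in the edgeR quasi-likelihood fit, so that it was not called. Across all genes 9.31% had an unadjusted p under 0.05.

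PCSK5, a convertase of growth factor precursors, had 11.95, 15.14, 7.46, 9.52 and 11.96 CPM in CON2, CON3, CON4, CON5 and CON13. In WD6, WD7, WD8, WD9 and WD15 it had 6.17, 4.46, 9.53, 5.27 and 4.79 CPM. Of the WD libraries only WD8 lay within the control range. The LFC was -0.87 ± 0.29 (SE), with an adjusted p of 0.299 in the edgeR quasi-likelihood fit, and its 95% interval was -1.49 to -0.25. It was the least counted of the 8 genes, with 10 read pairs in CON13 and 13 in WD6.

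PCSK6 and PCSK7 overlapped most between the groups. PCSK6, which is secreted and held at the cell surface, ranged from 12.5 to 27.5 CPM (median 24.6) in control and from 16.3 to 20.8 CPM (median 19.7) in WD. Its WD libraries lay closer together than its controls, at 19.1 ± 1.74 against 21.6 ± 6.53 CPM (SD, n = 5 each). Its LFC was -0.14 ± 0.23 (SE, adjusted p = 0.914 in the edgeR quasi-likelihood fit), with a 95% interval of -0.62 to 0.34, and turned to 0.016 with library totals only. PCSK7, the most widely expressed convertase next to FURIN, ranged from 14.9 to 29.6 CPM (median 18.8) in control and from 17.0 to 32.7 CPM (median 22.9) in WD, with an LFC of 0.20 ± 0.24 (SE, adjusted p = 0.859 in the edgeR quasi-likelihood fit) and a 95% interval of -0.30 to 0.70.

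**Figure D2:**
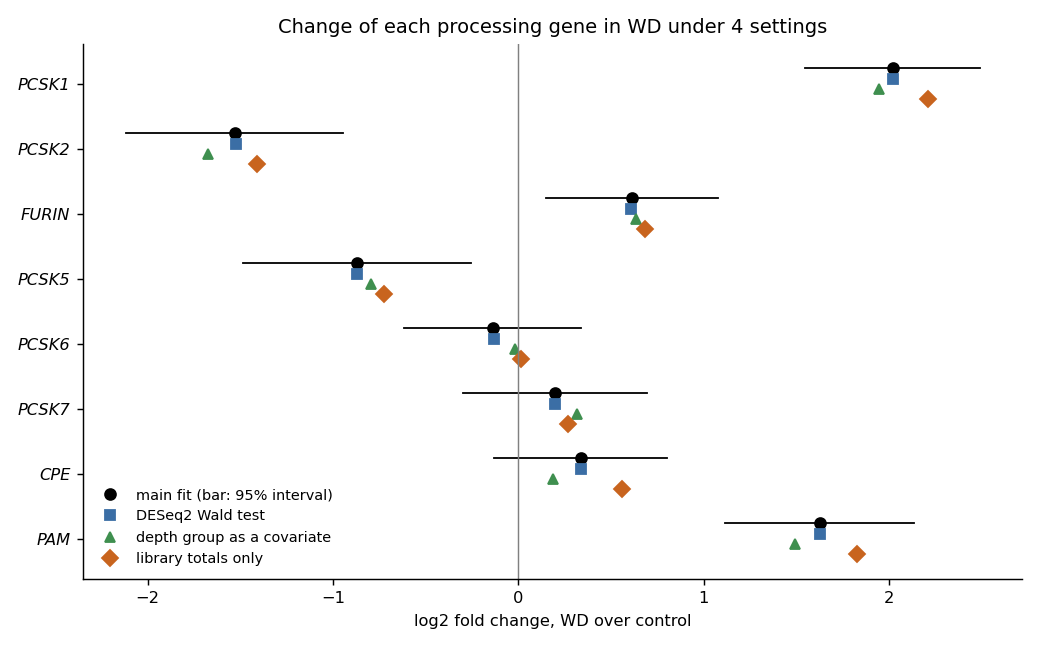
LFC of WD over control for each gene (horizontal axis, log2 scale) under 4 settings: the fit reported in the text with its 95% interval (black), DESeq2's Wald test (blue), the depth group as a covariate (green) and library totals only (orange). PCSK1 and PAM lie to the right of 0 and PCSK2 to the left of it under all 4 settings shown, and only PCSK6 changes side.

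To ask whether the steps of the pathway changed together, the counts of each pair of the 8 genes were divided by each other within every library, which removes the scaling between libraries. A ratio of counts also depends on the lengths of the transcripts, so that only its change between groups was read. The 28 differences were tested by a two-sided exact permutation test over all assignments of the 10 libraries to the groups, whose smallest possible p is 0.00794, and adjusted over the 28 ratios, which gives 0.0159 for that p. The groups did not overlap for 14 of the 28 ratios, beside 2.59% of all pairs of tested genes, and 20 passed 0.05 after adjustment. The largest unadjusted p among these 20 was 0.0317, and 7.18% of all pairs of tested genes had a p no larger than that. Without the 7 ratios of PAM, which was found through the table sorted by p-value, the groups did not overlap for 10 of 21 ratios and 14 of them passed. The 6 ratios that passed with overlap (PCSK1 to PAM, PCSK2 to PCSK6 and to PCSK7, PCSK5 to PCSK6 and to CPE, and PCSK7 to PAM) each lost their call when 1 or another library was left out, whereas none of the 14 did so. No ratio could pass an adjustment over all pairs of genes with 10 libraries.

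The balance of the granule convertases moved most. The ratio of PCSK1 to PCSK2 was 3.34, 5.19, 3.06, 5.92 and 7.56 in CON2, CON3, CON4, CON5 and CON13. It was 40.9, 54.2, 43.8, 50.6 and 80.2 in WD6, WD7, WD8, WD9 and WD15. CON13 and WD15 had the highest ratio of their groups, and the lowest WD ratio was far above the highest control ratio. The mean log2 ratio went from 2.24 ± 0.55 to 5.71 ± 0.38 (SD, n = 5 each), a difference of 3.47 or 11.1-fold (exact permutation p = 0.00794). The rise of PCSK1 and the fall of PCSK2 contribute to this one ratio together, and leaving out any 1 library left the difference between 3.31 and 3.64.

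PCSK1 and PAM also moved apart from CPE, the step between them. The ratio of PCSK1 to CPE was 0.713, 1.02, 0.737, 0.855 and 0.921 in CON2, CON3, CON4, CON5 and CON13. It was 3.35, 2.79, 1.86, 2.61 and 3.21 in WD6, WD7, WD8, WD9 and WD15. All WD libraries lay above all controls, with WD8 the lowest of them, and the difference was 3.22-fold (exact permutation p = 0.00794). The ratio of PAM to CPE was 0.479 to 0.646 (median 0.490) in control and 0.926 to 1.52 (median 1.37) in WD, a 2.38-fold difference without overlap (exact permutation p = 0.00794). PCSK2 fell against CPE, from 0.122 to 0.241 (median 0.196) in control to 0.0401 to 0.0821 (median 0.0515) in WD, which is 3.43-fold lower (exact permutation p = 0.00794). The ratio of PAM to PCSK2 was 8.18-fold higher in WD by the same test and p.

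PCSK1 and PAM changed by more nearly the same amount. Their ratio was 1.14, 1.57, 1.50, 1.79 and 1.90 in CON2, CON3, CON4, CON5 and CON13. It was 2.29, 2.03, 2.01, 1.72 and 2.57 in WD6, WD7, WD8, WD9 and WD15. WD9 lay among the controls, and the groups overlapped. The difference of 1.35-fold had an exact permutation p of 0.0238 and 0.0351 after adjustment over the 28 ratios, and was no longer past 0.05 without CON13 and WD6 (permutation p adjusted to 0.08).

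**Figure D3:**
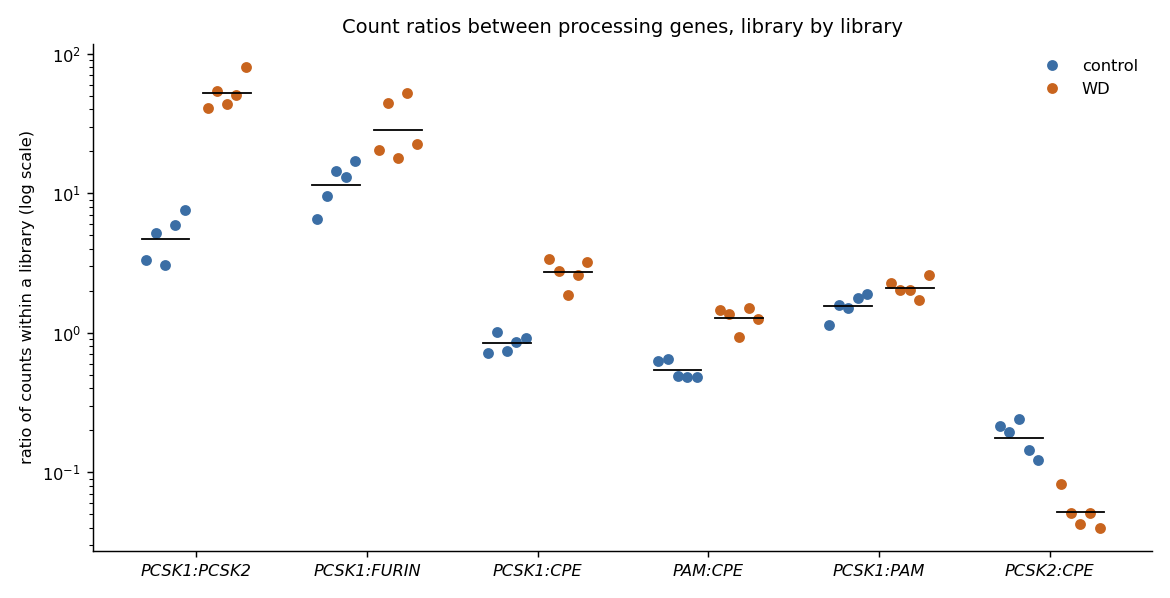
Ratio of counts between 2 of the genes within each library (vertical axis, log scale) for 6 ratios. Points are libraries (blue control, orange WD, n = 5 each) and lines are the means of the log2 ratios. Control and WD points are separated for every ratio shown except PCSK1 to PAM, and furthest for PCSK1 to PCSK2. For PCSK1 to FURIN they nearly touch, at 17.1 in CON13, with 9 read pairs on FURIN, and 17.9 in WD8.

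The separated ratios followed from the called genes for the most part: 12 of the 14 held PCSK1, PCSK2 or PAM. PCSK1 was separated against 6 of the other 7 genes, but its ratio was also separated against 78.5% of all other tested genes. The same holds for PCSK2 (4 of 7, beside 38.6% of all genes) and for PAM (4 of 7, beside 61.0%), so that these counts are not particular to the pathway. All 3 separated ratios of CPE were with PCSK1, PCSK2 and PAM (3.09% of all genes). PCSK6 was separated from PCSK1 and PAM (2 of 7, beside 0.769% of all genes), and PCSK7 from PCSK1 and PCSK5 (2 of 7, beside 1.39%).

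Among the 10 ratios between genes that were not called, 2 were separated, and both held PCSK5. The ratio of PCSK5 to FURIN was 0.489, 0.617, 0.421, 0.438 and 1.11 in CON2, CON3, CON4, CON5 and CON13. It was 0.166, 0.166, 0.268, 0.233 and 0.139 in WD6, WD7, WD8, WD9 and WD15. CON13, with 10 and 9 read pairs on the genes, stood apart from the other controls, and the WD libraries were 3.04-fold lower (exact permutation p = 0.00794). The ratio of PCSK5 to PCSK7 was 0.463 to 0.639 (median 0.514) in control and 0.192 to 0.418 (median 0.254) in WD, which is 2.14-fold lower (exact permutation p = 0.00794). PCSK5 was separated from 4 of the other 7 genes, beside 9.30% of all genes, and FURIN from 3 of 7, beside 11.1%. CPE, PCSK6 and PCSK7 were not separated from each other, and their ratios differed by 1.09-fold to 1.36-fold (exact permutation p of 0.230 to 0.794).

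**Figure D4:**
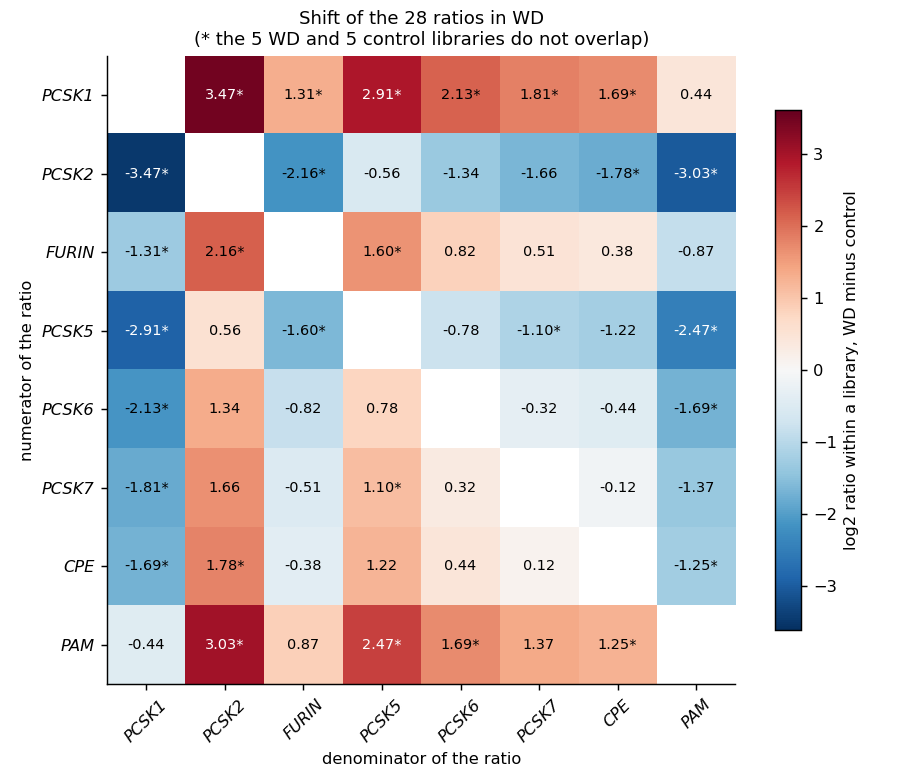
Difference of the mean log2 ratio (WD minus control) for each of the 28 ratios, with the gene in the numerator by row and in the denominator by column (red higher, blue lower in WD, a star where the groups do not overlap). The row of PCSK1 is red throughout and the row of PCSK2 blue throughout, and the darkest cell is their own ratio at 3.47.

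Within the groups, the ratios among PCSK1, PAM and CPE varied least of the 28. The SD of the log2 ratio within groups was 0.25 for PAM to CPE, 0.26 for PCSK1 to PAM and 0.28 for PCSK1 to CPE, and it reached 0.83 for other ratios. These are also 3 of the most counted of the 8 genes, so that counting error adds least to their ratios.

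Across all 10 libraries, likeness to a gene was described by the SD of the log2 ratio to it, for 9083 gene IDs with a mean of at least 10 CPM, of which 2291 had a symbol. This is a description without a test, and a shared difference between the groups weighs heavily in it. The genes most like PCSK1 were PDYN, the precursor of dynorphins (SD 0.29), then PAM (0.33) and TENT5A, a poly(A) polymerase (0.37), and these were the nearest of all IDs, named or not. Those most like PAM were SCG3, a granin that helps to sort cargo into granules (0.26), TENT5A (0.31) and SDF2L1, a protein of the endoplasmic reticulum (0.33). Genes like PCSK2 included UNC13C, which primes synaptic vesicles (0.38), and DPP10, an auxiliary subunit of potassium channels (0.38). The LFC of these was -0.97 and -1.27, and of the pair only DPP10 was called (adjusted p = 0.0342 in the edgeR quasi-likelihood fit). Genes like CPE included NPEPPS, a cytosolic aminopeptidase (0.16), and HSP90AA1, a chaperone (0.16), whose LFC of 0.14 and 0.28 did not pass the test. Among all IDs, named or not, NPEPPS and HSP90AA1 ranked only 37 and 40 in likeness to CPE.

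The relatives and partners of the 8 enzymes gave few calls. Of the other subtilases 0 of 3 tested were called by edgeR or by DESeq2 and 0 had an unadjusted p under 0.05 in the edgeR fit (PCSK4, MBTPS1 and TPP2, with LFC of -0.19, 0.02 and 0.37). PCSK1N, whose product proSAAS binds and inhibits PCSK1, had 146, 163, 149, 132 and 215 CPM in CON2, CON3, CON4, CON5 and CON13. It had 297, 137, 91.6, 103 and 123 CPM in WD6, WD7, WD8, WD9 and WD15. WD6 was the highest and the other WD libraries lay mostly below the controls, with an LFC of -0.10 ± 0.27 (SE, adjusted p = 0.949 in the edgeR quasi-likelihood fit). The ratio of PCSK1 to PCSK1N, chosen after its values were seen and not tested, was 0.900 to 2.16 in control and 2.65 to 11.5 in WD. SCG5, the chaperone of PCSK2, had no ID paired with its name and is not analysed here.

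Of the 7 other carboxypeptidases of the CPE subfamily 0 were called by edgeR or by DESeq2, 1 (AEBP1) had an unadjusted p under 0.05 in the edgeR fit, and their median LFC was -0.05. CPD, which works in the trans-Golgi network, had an LFC of 0.23 (adjusted p = 0.826), and AEBP1, a relative without known peptide-trimming function, had -0.42 (adjusted p = 0.531), both in the edgeR quasi-likelihood fit. Of 13 enzymes that trim or break down peptides 0 were called by edgeR or by DESeq2 and 1 (TRHDE) had an unadjusted p under 0.05 in the edgeR fit, with a median LFC of 0.14. The largest difference among them was that of TRHDE, which breaks down thyrotropin-releasing hormone: it had 16.1 to 29.5 CPM (median 18.7) in control and 2.92 to 13.7 CPM (median 9.02) in WD, without overlap, and an LFC of -1.13 ± 0.31 (SE, adjusted p = 0.178 in the edgeR quasi-likelihood fit). LNPEP, the aminopeptidase that degrades oxytocin and vasopressin, had an LFC of 0.49 ± 0.28 (SE, adjusted p = 0.63 in the edgeR quasi-likelihood fit). For the supply of acid to the granule, 3 subunits or partners of the proton pump were measured, ATP6AP1, ATP6AP2 and ATP6V0B, with LFC of 0.35, 0.61 and 0.85, all named only in the table sorted by p-value. ATP6V0B had 40.7 to 84.9 CPM in control and 87.3 to 122 CPM in WD, without overlap, and was called by DESeq2's Wald test (adjusted p = 0.00726) but not in the edgeR quasi-likelihood fit (adjusted p = 0.0757), in which 0 of the 3 were called and 2 had an unadjusted p under 0.05. The copper and ascorbate suppliers ATP7A, SLC31A1 and CYB561 had no ID paired with their names.

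Among precursors that these enzymes process, 13 passed the filter, of which edgeR called 4 higher and 1 lower in WD, beside 0.499% of all genes. Without SCG2 and SCG3, which could be named only through the table sorted by p-value, 2 of 11 were called higher and 1 lower. PDYN had 122, 114, 186, 227 and 163 CPM in CON2, CON3, CON4, CON5 and CON13. It had 712, 761, 439, 621 and 559 CPM in WD6, WD7, WD8, WD9 and WD15, an LFC of 1.93 ± 0.22 (SE, adjusted p = 0.000302 in the edgeR quasi-likelihood fit). The ratio of PCSK1 to PDYN was 1.19 to 2.08 in control and 1.10 to 1.91 in WD, with overlap and a 1.04-fold difference. The ratio of PCSK2 to PDYN was 0.158 to 0.456 in control and 0.0177 to 0.0378 in WD, without overlap. These ratios to precursors were chosen after their values were seen and were not tested.

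VGF, a granin-like precursor, had the smallest p of all genes, an LFC of 3.99 ± 0.36 (SE, adjusted p = 3.85e-05 in the edgeR quasi-likelihood fit). The ratio of PCSK1 to VGF was 3.13 to 9.82 in control and 0.550 to 2.49 in WD, without overlap. SCG2 and SCG3, granins named only in the table sorted by p-value, had an LFC of 1.48 (adjusted p = 0.0213) and 1.34 (adjusted p = 0.0349) in the edgeR quasi-likelihood fit. NPB, the precursor of neuropeptide B, fell, from 15.1 CPM (9.18 to 29.9) to 3.68 CPM (1.54 to 5.23), an LFC of -1.94 ± 0.39 (SE, adjusted p = 0.0237 in the edgeR quasi-likelihood fit). The other granins CHGA and CHGB had an LFC of 0.12 and 0.10, PENK of 0.06 and TRH of -0.37, and none of these was called. The median LFC of the 13 precursors was 0.10, and 0.06 for the 11.

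**Figure D5:**
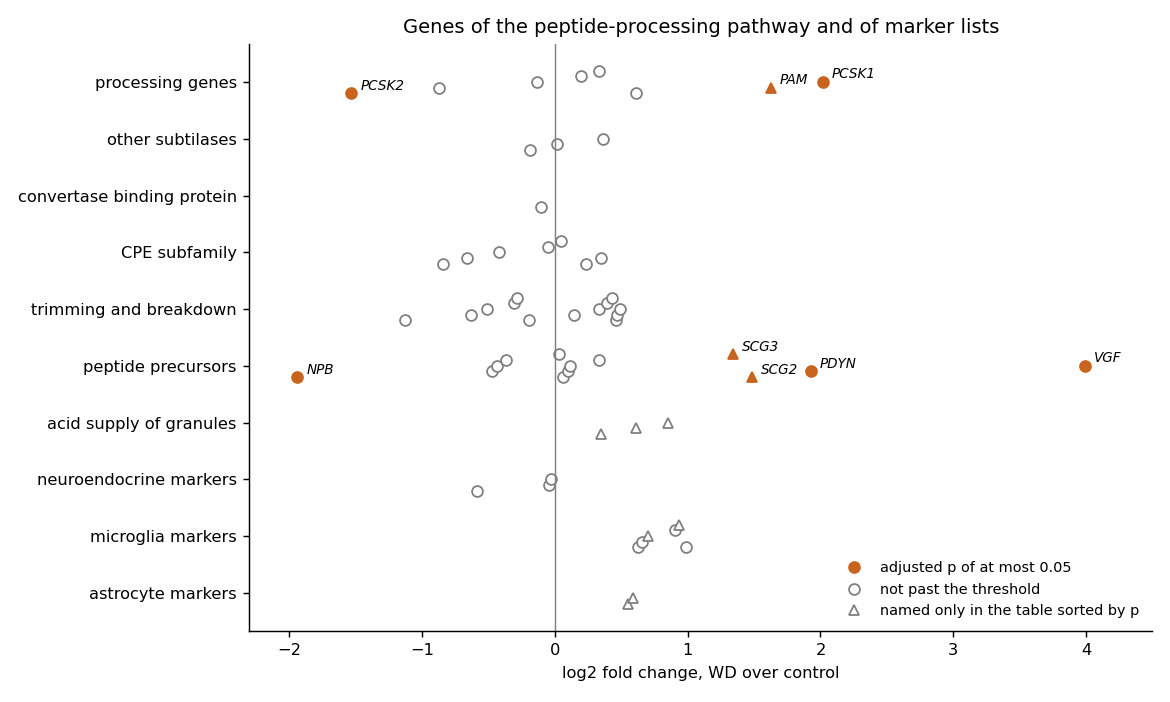
LFC of WD over control (horizontal axis, log2 scale) for every tested gene of the pathway lists and of 3 marker lists, 1 point a gene, with filled points for adjusted p of at most 0.05 and triangles for genes named only in the table sorted by p-value. Calls occur among the 8 processing genes (3) and the precursors (5), and in none of the other lists shown, by edgeR.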

How the data were processed

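Stranded RNA libraries of the rostral SON, 5 from control and 5 from WD camels, were sequenced from both ends. The authors used STAR to align the reads to Camdro2 and featureCounts to count read pairs per gene, and they deposited these counts without normalization and without pooling. The authors also deposited a normalized signal per gene, the count after division by DESeq2's size factor for the library, which was not tested here. The annotation release, the strand setting of the counting and what was done with read pairs on several genes are not given in the sources used here, so that overlapping genes are uncertain.

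The 8 genes and the lists were chosen with earlier results of these data known. Symbols were paired with 4351 of the 22444 IDs through the study's gene tables, 1 of which is shortened to 1819 genes sorted by p-value. Groups were taken from the labels. Counts were compared with edgeR 4.0.16 in R 4.3.3 (quasi-likelihood F test, robust fit, TMM, filterByExpr by group), and p-values of 14432 genes were adjusted after Benjamini and Hochberg, with a threshold of 0.05. The SE of an LFC is the LFC over the square root of F. Log2 ratios used counts plus 0.5 and exact permutation in Python 3.11.15, with Benjamini-Hochberg adjustment over the 28 ratios. The named genes are the 8, the called genes, relatives, partners and substrates of the lists, and the 3 genes with a symbol most like PCSK1, PCSK2, PAM and CPE. Results on some genes that this rule names are not reported here. Both tests were tested on simulated data, which for the ratios had high counts and no variation between camels beyond depth and counting error. Alternatives were DESeq2 1.42.0 (Wald test), other scalings and filters, RNA integrity, fragment size and depth group as covariates, another pseudocount, and libraries left out. Genes named here without a paired ID were not analysed.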

Additional observations from a re-analysis of the deposited data

Results flagged for a closer look

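In 1 of 72 groups of 5 libraries (the levels of the 8 genes and their 28 ratios, control and WD), a single library stood far from the others by Dixon's criterion for 5 values. This was the ratio of PCSK2 to FURIN in control camels, where CON4 had 4.74 and the other 4 control libraries had 1.85 to 2.26. CON4 also had the highest level of PCSK2, 84.6 CPM. Without CON4 the difference of this log2 ratio between WD and control was -1.92, beside -2.16 with all libraries. Chance flags about 1 in 20 such groups.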

How the results depend on the processing

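PCSK1 kept its call under all settings, PCSK2 and PAM under all but those named here. With library totals only, which moved the median LFC of all genes from 0.02 to 0.16, 10 genes were called (70% of them higher in WD, beside 54.2% of 72), PCSK2 had -1.41 (adjusted p = 0.724), PAM 1.83 (adjusted p = 0.178) and PCSK6 turned to 0.016. DESeq2's Wald test called 209 genes and edgeR with the depth group as a covariate 224. Leaving out 1 library at a time gave 40 (without CON3) to 102 (without WD6) calls, 42 without CON5, and LFC of -1.67 to -1.28 for PCSK2, with its call lost without WD8. The log2 ratio of PCSK1 to PAM differed by 0.48 without CON13 and WD6 (adjusted p = 0.08) and by 0.32 to 0.51 with 1 library left out, and that of PCSK7 to CPE, -0.12 with all libraries, by -0.37 to 0.088. The ratio of PCSK5 to CPE lost its call with 5 counts added and without CON13 and WD6, that of PCSK5 to PCSK6 under the latter, and FURIN to PAM gained a call with 5 counts added. Without CON13 and WD6 the smallest p of the exact test is 0.0286. With a minimum of 1 CPM in place of 10, BTBD17 became the gene most like PCSK2 (SD 0.34). FURIN has no value with at least 10 counts in every library. No paired analysis was possible because the control and WD libraries came from different camels. The causes of these shifts were not tested. Members with under 25 read pairs in CON13 (PCSK2, PCSK5, PCSK6, PCSK7 and FURIN) are limited by depth there.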
